A study of Homo sapiens with 34 samples.

Results

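BV-173, a human B-cell acute lymphoblastic leukemia (B-ALL) line that carries the BCR-ABL fusion, was studied after knockdown of *CCND3*, the gene for cyclin D3. Of the 34 RNA-seq samples of the series, 6 belong to this comparison: 3 with a lentiviral shRNA against *CCND3* and 3 with a scrambled shRNA, all taken as sorted, transduced cells on day 4. The 6 samples are placed by their labelled cell line and shRNA, and the genes are those of the table that sets the 2 groups side by side. The vector marks transduced cells with a red fluorescent protein, 1 *CCND3* shRNA was sequenced, and the cells are 1 established line, so the comparison has no second hairpin and no second BCR-ABL line. For reference, the same shRNA pair was sequenced in NALM-6 (ETV6-PDGFRB, 3 scrambled and 2 *CCND3* shRNA samples) and RS4;11 (MLL-AF4, 3 and 3), and BV-173 cells were treated for 3 days with 1 µM palbociclib, an inhibitor of CDK4 and CDK6, or with DMSO (3 and 2 samples).

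Cyclin D3 binds CDK4 or CDK6, and the complexes phosphorylate RB1 and its relatives RBL1 and RBL2. Unphosphorylated pocket proteins hold E2F factors on the promoters of S-phase genes, and together with the MuvB core they hold down genes of mitosis through a promoter element called the CHR. In B-cell precursors cyclin D3 is the D-type cyclin that drives the divisions following the pre-B-cell receptor, and BCR-ABL supplies a constant growth signal through ABL1 kinase and STAT5.

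The table holds 1 level per gene and group, a read-based expression value taken as scaled within the pair of groups, with the replicates already combined by the authors. No spread between the 3 samples of a group can be seen, so no value below has an SD, no test was run, and the depth per sample is unknown. Each gene is given by its 2 levels and by the log2 ratio of (level + 1) with *CCND3* shRNA over scrambled shRNA. A gene is called higher or lower when the ratio is past a fold change of 1.5, which is a rule of size only. Of 14763 genes listed, 11230 had a mean level of at least 10 over both groups and entered. Gene lists are counted over their members that entered. Ratios of barely detected genes were compressed: without the added 1, the SD of the log2 ratio was 0.111 over 1921 genes with a mean level under 1, 0.460 over 808 genes at 10 to 30 and 0.309 over 3001 genes at 1000 to 3000. All 11 markers of B-cell precursors were listed, with a summed level of 60924 in scrambled and 60079 in *CCND3* shRNA cells, although the stem-cell antigen gene *CD34* was near the floor at 5.23 and 6.78. Of 5 T-cell markers 2 were listed, with a sum of 4.72 and 4.90, and of 8 myeloid markers 6 were listed, with a sum of 273 and 261. The defining T-cell genes *CD3D* and *CD3E* and the erythroid globin genes were not listed, and listed erythroid and stromal markers summed to at most 0.347. RNA of sorted cells is measured in bulk, so fewer cells in a state and less RNA per cell cannot be told apart.

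*CCND3* itself, on chromosome 6 of GRCh38.p14 from 41934933 to 42050035, had a level of 6619 with scrambled shRNA and 2059.6 with *CCND3* shRNA. This is a log2 ratio of −1.68, with 31.1% of the control level left, and it was the lowest ratio of the 9485 genes with a mean level of at least 100. In the other lines the log2 ratio of *CCND3* was −2.04 (NALM-6) and −2.27 (RS4;11), both further from 0 than in BV-173. Per kilobase of listed gene length, the level of *CCND3* in scrambled cells was 3161, against 104 for *CCND2* and 0.888 for *CCND1*, the other D-type cyclins. After knockdown the level per kilobase of *CCND3* was 984, still above the 129 of *CCND2*. The level of *CCND2* went from 681 to 841, a log2 ratio of 0.31 that is short of the fold, whereas with palbociclib its log2 ratio was 1.40.

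Among 15 entered genes of the list of D-type cyclins, their kinases, pocket proteins, E2F factors and E-type cyclins, 6 were lower and 0 higher, with a median log2 ratio of −0.37. The background is 5.25% of all genes lower and 3.96% higher. Besides *CCND3*, the lower members were *RBL1*, a pocket protein gene (1381 to 802, log2 ratio −0.78), the E-type cyclin gene *CCNE2* (−0.70), *E2F2* (−0.67), *E2F1* (−0.62) and *CDK2* (−0.61). *E2F2* was short of the fold with the length trend taken out (−0.52). *RBL1*, *CCNE2*, *E2F1* and *E2F2* are themselves known targets of E2F. The kinase partners of cyclin D3 stayed short of the fold: *CDK4* went from 4617 to 4840.5 (log2 ratio 0.07) and *CDK6* from 3455 to 2605 (−0.41). *RB1* was at 4021 with scrambled shRNA and 3505 with *CCND3* shRNA (−0.20), and *RBL2* and *E2F4*, which act in resting cells, had ratios of −0.07 and 0.18.

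Over all genes, 445 were higher and 590 lower past 1.5-fold, and 60 were higher and 55 lower past 2-fold. The 5th and 95th percentiles of the log2 ratio were −0.60 and 0.54, and its SD over genes was 0.355. The balance of the 2 directions depends on the scaling. When both groups were set to equal sums over all genes, the median log2 ratio moved by −0.10, and 261 genes were higher and 956 lower, so that 21.4% of the genes past the fold were higher in place of 43.0%. Values below are on the authors' scale, in which the median of all genes is 0.00.

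**Figure D1:**
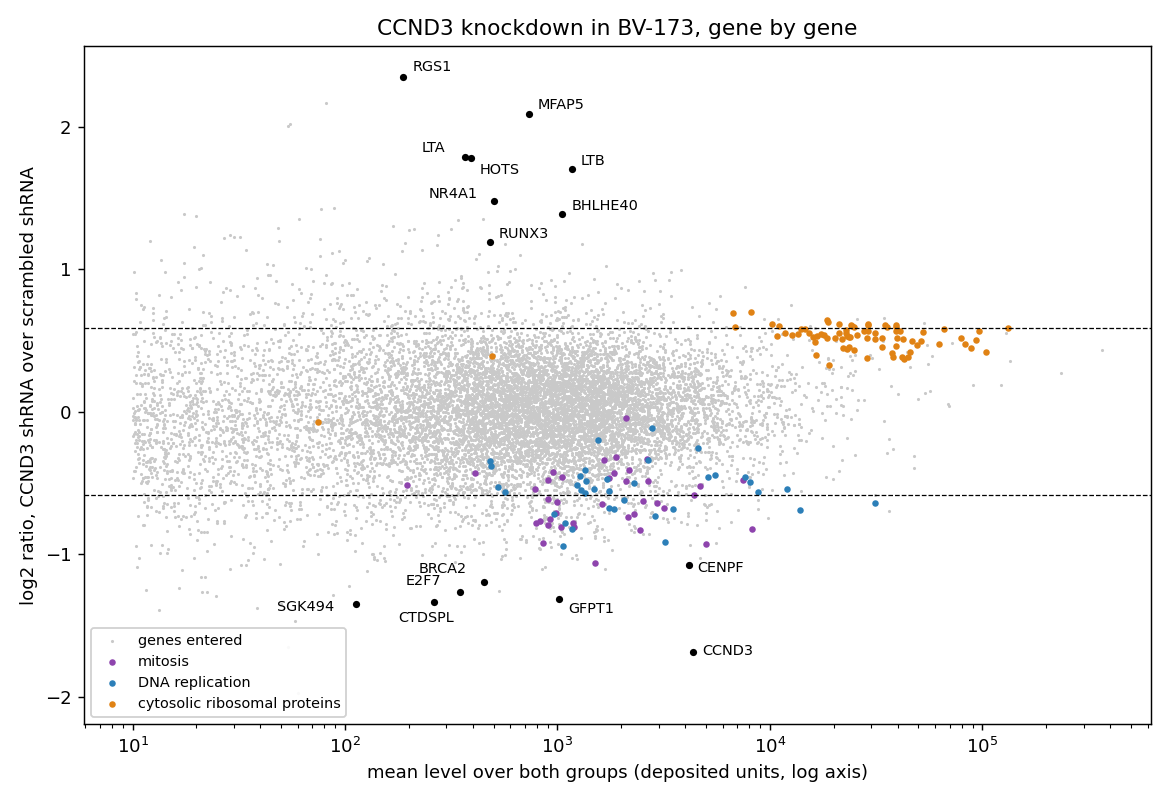
Log2 ratio of each of the 11230 genes entered (vertical axis) against its mean level over both groups (horizontal axis, log scale, deposited units), 1 point a gene, with dashed lines at 1.5-fold. *CCND3* lies at −1.68, lowest among genes at levels above 100, the genes of mitosis and DNA replication lie below 0, the cytosolic ribosomal protein genes lie near 0.53 at high levels, and a few genes such as *RGS1* and *MFAP5* lie above 2.

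The log2 ratio in BV-173 followed the listed gene length. For genes of up to 1000 bases the median log2 ratio was 0.32 (622 genes), for genes of 2000 to 3000 bases 0.07 (2588 genes), for genes of 4000 to 6000 bases −0.12 (2248 genes) and for genes over 12000 bases −0.31 (96 genes). Spearman's rho between ratio and length was −0.45 over the 11230 genes, −0.56 over the 4280 genes with a mean level of at least 1000, and −0.44 over the 10483 genes on none of the gene lists used here. These are descriptions across genes of 1 pair of group values, and genes are not independent replicates. The same rho was 0.03 for the knockdown in NALM-6, −0.04 in RS4;11 and −0.21 for palbociclib in BV-173. The 445 higher genes had a median length of 1948 bases and the 590 lower genes one of 4188 bases, against 3053 for all genes. Transcript GC content, which could be set for 99.5% of the genes, also went with the ratio (rho 0.39, and 0.29 with the length trend taken out). What produced the trend was not tested. Beside the values as listed, ratios are therefore also given with the length trend taken out, as each gene's log2 ratio less the median of the genes of like length (20 bins). With the trend taken out, 335 genes (2.98%) were higher and 559 (4.98%) lower, and 268 of the 445 higher genes (60.2%) and 420 of the 590 lower genes (71.2%) remained past the fold.

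**Figure D2:**
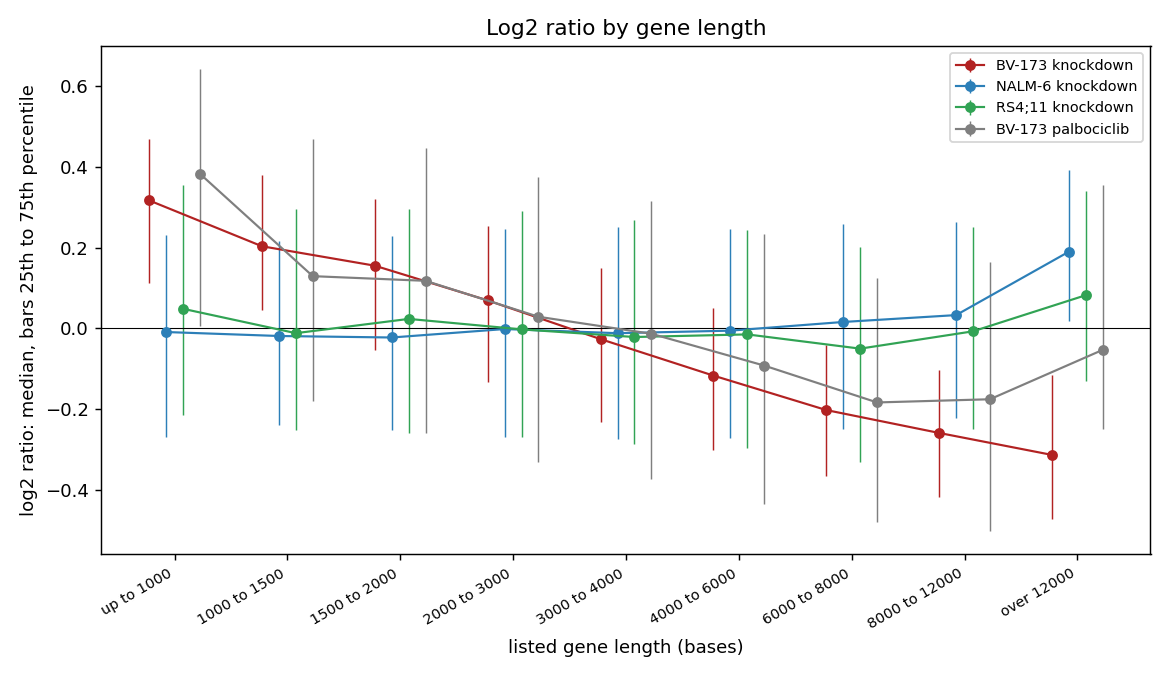
Median log2 ratio (points) with the 25th to 75th percentile of genes (bars) for classes of listed gene length in bases, for the knockdown in BV-173, NALM-6 and RS4;11 and for palbociclib in BV-173. In the BV-173 knockdown the median goes down in every class, from 0.32 to −0.31, while in the NALM-6 and RS4;11 knockdowns it stays between −0.05 and 0.19.

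Genes of mitosis were lower with *CCND3* shRNA and had the lowest median of the 33 gene lists. All 40 genes on the list entered, all 40 had a log2 ratio below 0, and 23 (57.5%) were past the fold, against 5.25% of all genes. The median log2 ratio was −0.63, and −0.60 with the length trend taken out, where 25 of 40 were past the fold. Which members passed went with length: 19 of the 21 members longer than the median of all genes were past the fold, and 4 of the 19 shorter ones, with medians of −0.77 and −0.48 (−0.66 and −0.56 with the length trend taken out). Most of their matched promoters hold the letters of the CHR element, which the list did not use. Windows around it are shown for some members, with ratios from −1.06 (*ASPM*) to −0.34 (*PLK1*). The element TTTGAA, or TTCAAA where it lies on the other strand, is in capitals. They are from the RefSeq promoters of GRCh38.p14, each read 5′ to 3′ along its gene.
*ASPM*, chr1:197146761-197146799, minus strand: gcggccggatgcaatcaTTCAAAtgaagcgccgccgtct
*MKI67*, chr10:128126431-128126469, minus strand: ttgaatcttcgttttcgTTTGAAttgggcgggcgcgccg
*KIF11*, chr10:92593085-92593123, plus strand: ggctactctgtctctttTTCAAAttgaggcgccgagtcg
*BUB1B*, chr15:40161029-40161067, plus strand: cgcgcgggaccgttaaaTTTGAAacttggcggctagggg
*CCNB2*, chr15:59105100-59105138, plus strand: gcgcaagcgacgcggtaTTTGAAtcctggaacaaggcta
*PLK1*, chr16:23678843-23678881, plus strand: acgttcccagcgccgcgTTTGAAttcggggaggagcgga
In *MKI67*, *KIF11*, *BUB1B*, *CCNB2* and *PLK1* the element starts 29, 28, 23, 29 and 29 bases before the start site, and in *ASPM* 113 bases before it. Among members not shown the position varied: 22 bases in *HMMR*, 35 in *NCAPG*, 65 and 178 in *CDC20* and 161 in *CDK1*. Promoters of 250 bases before to 50 after a start site could be matched for 9277 of the 11230 genes (82.6%). TTTGAA on either strand was in 24 of 34 mitosis promoters (70.6%), in 138 of 477 promoters of lower genes (28.9%) and in 13.9% of all promoters. It was in 36 of 351 promoters of higher genes (10.3%). The 24 mitosis genes with the letters had a median log2 ratio of −0.75 as listed and the 10 without them one of −0.49. The length trend was not taken out of this split, and the part of length in the gap was not tested. A match of letters is a description and no binding was measured.

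The lowest of the mitosis genes were *CENPF*, for a kinetochore protein (5615 with scrambled shRNA and 2668 with *CCND3* shRNA, log2 ratio −1.07), and *ASPM*, for a spindle pole protein (2026 to 969.9, −1.06). *MKI67*, the proliferation antigen Ki-67, went from 6519 to 3433 (−0.92), the motor gene *KIF11* from 3138 to 1762 (−0.83), *TOP2A*, which untangles sister chromosomes, from 10551 to 5958 (−0.82), and *CDK1*, the mitotic kinase, from 1976 to 1262 (−0.65). *FOXM1*, a transcription factor of these genes, was also lower (3918 to 2449.8, −0.68). At the mild end, *CCNB1* (−0.48), *AURKA* (−0.45), *PLK1* (−0.34), *CDC20* (−0.33) and *AURKB* (−0.32) stayed short of the fold, and the securin gene *PTTG1* was nearly equal in both groups (2142 to 2078, −0.04).

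Genes of DNA replication were lower by a similar amount. All 36 entered with ratios below 0, 12 (33.3%) were past the fold, and the median log2 ratio was −0.54, or −0.56 with the length trend taken out, where 14 were past it. Other letters were looked for in their promoters. The E2F letters TTTGGCGC or TTTCCCGC, on either strand, were in 18 of 32 promoters (56.3%), against 3 of 34 mitosis promoters (8.82%), 50 of 477 promoters of lower genes (10.5%) and 4.76% of all promoters, and TTTGAA was in 0 of the 32. Neither set of letters is contained in the other. Windows of genes for the polymerase, the helicase, the clamp and the licensing factor are shown, with the E2F letters of either strand in capitals.
*POLA1*, chrX:24693764-24693804, plus strand: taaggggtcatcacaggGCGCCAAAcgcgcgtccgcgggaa
*MCM3*, chr6:52284893-52284933, minus strand: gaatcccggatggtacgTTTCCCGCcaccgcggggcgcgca
*MCM7*, chr7:100101561-100101601, minus strand: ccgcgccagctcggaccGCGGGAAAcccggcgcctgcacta
*MCM6*, chr2:135876510-135876550, minus strand: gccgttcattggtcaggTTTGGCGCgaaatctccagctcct
*PCNA*, chr20:5126658-5126698, minus strand: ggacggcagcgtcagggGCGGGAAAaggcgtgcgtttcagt
*CDT1*, chr16:88803737-88803777, plus strand: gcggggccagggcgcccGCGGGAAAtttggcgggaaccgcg
The replication genes with these letters had a median log2 ratio of −0.55 and those without them one of −0.53.

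Past the fold were *CLSPN*, for the fork protein claspin (1394 to 726, −0.94), *POLE*, for the leading-strand polymerase (4194 to 2225, −0.91), *ORC6* of the origin recognition complex (−0.82), *POLA1* (−0.78), *CDC45* (−0.68) and *UHRF1*, which carries DNA methylation through S phase (17163 to 10654, −0.69). Of the MCM helicase genes, *MCM4* was past the fold as listed (37911 to 24373, −0.64) and short of it with the length trend taken out (−0.52), and *MCM3*, *MCM7*, *MCM2*, *MCM5* and *MCM6* lay between −0.56 and −0.45. The clamp gene *PCNA* was at 8830.0 with scrambled shRNA and 6419.8 with *CCND3* shRNA (−0.46, −0.64 with the length trend taken out), and the licensing gene *CDT1* at −0.26. Of 19 genes of nucleotide synthesis, 2 were lower (10.5%, against 5.25% of all genes) and 0 higher, with a median of −0.22. *DCK*, which salvages deoxycytidine, went from 3463 to 2132 (−0.70). *RRM1* (−0.52), *RRM2* (−0.51), *TK1* (−0.47) and *TYMS* (−0.43) stayed short of it as listed, where *TK1* (−0.64) and *TYMS* (−0.60) were past it with the length trend taken out, and the purine synthesis genes *PAICS* (−0.05) and *GART* (−0.02) were near 0.

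Both cell-cycle lists were further from 0 in the other comparisons. The median of the mitosis genes was −0.63 in BV-173, −1.35 in NALM-6 and −1.61 in RS4;11 after knockdown, and −2.0 with palbociclib in BV-173. All 40 were past the fold in each of these 3 other comparisons, where 10.3% (NALM-6), 11.1% (RS4;11) and 14.2% (palbociclib) of all genes were lower. For the replication genes the medians were −0.54, −1.10, −1.73 and −1.35, and 35 of 36 (NALM-6), 36 and 36 were past the fold. The ratio in BV-173 was the nearest to 0 of the 3 lines for 40 of 40 mitosis genes and 34 of 36 replication genes, while it was the nearest to 0 for 42.5% of all 10547 genes that entered in all 3 lines. *CCND3* was also less reduced in BV-173, and the part of this in the difference was not tested.

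**Figure D3:**
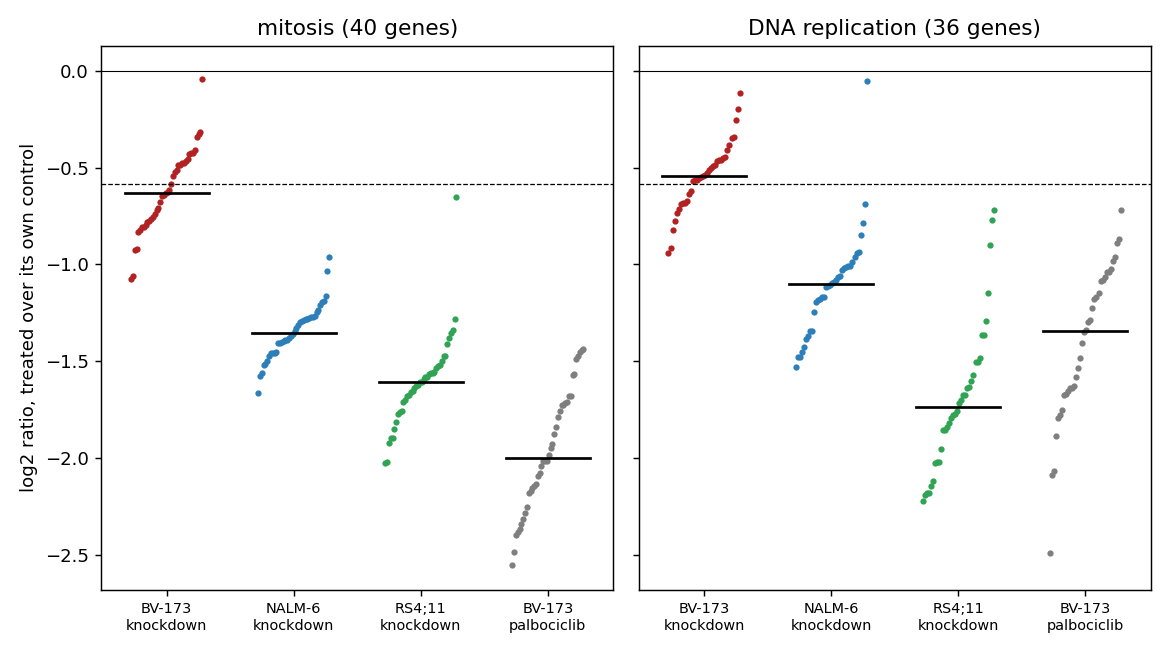
Log2 ratio of treated over control cells (vertical axis) for each mitosis gene (left) and DNA replication gene (right) in 4 comparisons, 1 point a gene in order of value, with the median as a black bar and a dashed line at 1.5-fold. The BV-173 knockdown lies nearest to 0 in both panels, with medians of −0.63 and −0.54.

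The 15 lowest ratios among the 9485 genes with a mean level of at least 100 were led by *CCND3*. Of the rest, 8 are genes of cell division or DNA repair by their known function: *E2F7*, an E2F repressor (490.1 to 204, −1.26), *CENPK* of the kinetochore (747 to 312, −1.26), *BRCA2* (626 to 272, −1.20), the nuclease gene *GEN1* (2295 to 1070.0, −1.10) and *FIGNL1* (−1.09) of homologous recombination, *NEK7* (−1.10), *CENPF* and *ASPM*. All of these were past the fold in the same direction in RS4;11 and with palbociclib. *CTDSPL*, for a phosphatase that acts on RB1, went from 376 to 149 (log2 ratio −1.33) and was at −2.03 in NALM-6 and −2.72 in RS4;11, but at −0.49 with palbociclib. *GFPT1*, the first enzyme of the hexosamine pathway, followed the same pattern (1456 to 587, −1.31 in BV-173, −2.08 and −1.65 in the other lines, −0.52 with palbociclib). *SGK494* (163 to 63.2, −1.35) was past the fold in RS4;11 (−0.64) and not in NALM-6 (−0.36) or with palbociclib (0.35). *ARHGAP11B* (−1.22), which is a partial copy of *ARHGAP11A* and may share reads with it, *C21orf58* (−1.08) and *C2orf48* (−1.12) complete the 15. With the length trend taken out all 15 remained past the fold, between −1.81 (*CCND3*) and −0.80 (*ASPM*).

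The highest ratios belonged to genes of another kind. Of the 15 highest among genes with a mean level of at least 100, the first was *RGS1*, for a regulator that damps G-protein signalling in B cells (61.1 with scrambled shRNA and 316 with *CCND3* shRNA, log2 ratio 2.35). It was also higher in RS4;11 (1.05). *RGS1* did not enter in NALM-6 or with palbociclib in BV-173, where it was at 1.87 with DMSO and 2.14 with palbociclib. *MFAP5*, for a protein of elastic microfibrils, followed (279 to 1191, 2.09). It was near 0 in NALM-6 (0.18) and RS4;11 (−0.07) but higher with palbociclib in BV-173 (2.80). The neighbouring genes *LTA* and *LTB* on chromosome 6, which encode the 2 subunits of lymphotoxin, were both high in *CCND3* shRNA cells. *LTA* was at 164 with scrambled shRNA and 569 with *CCND3* shRNA (1.79) and *LTB* at 547 with scrambled shRNA and 1786 with *CCND3* shRNA (1.71). The tumor necrosis factor gene *TNF*, which lies between them, was at 553 and 538 (−0.04). *LTB* was past the fold in every comparison (1.35 in NALM-6, 3.48 in RS4;11, 2.51 with palbociclib), whereas *LTA* was lower in NALM-6 (−0.95). With palbociclib in BV-173 *LTA* was higher (2.17), as was *HOTS* (2.69). *HOTS* (175 to 605, 1.78) is annotated across *H19* on the opposite strand, and no strand setting is given in the sources used here, so reads of the 2 genes cannot be told apart.

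Several others of the 15 are genes known to be switched on quickly when lymphocytes are activated. *NR4A1*, an orphan nuclear receptor gene and a readout of antigen receptor signalling, went from 264 to 738 (1.48), *CD69*, an early activation antigen gene, from 252 to 643 (1.35), and *BHLHE40*, a repressor gene, from 582 to 1527 (1.39). Related genes, looked up after these values were seen, were not all past the fold. *FOSB* (421 to 905, 1.10), *FOSL2* (144 to 317, 1.14), *BCL3* (1.06), *ICAM1* (0.67) and *EGR1* (0.66) were higher past the fold. *FOS* (0.08), *JUN* (0.33), *IER2* (0.09), *TNFAIP3* (0.35), *NFKB1* (−0.14) and *DUSP1* (−0.34) were not past it in either direction. Nor were *NR4A2* (0.12), *NFKB2* (0.46), *RELB* (0.41) and *DUSP2* (−0.41). *NFKBIA*, the inhibitor of NF-κB, was lower (1491 to 969, −0.62). *NR4A1* was higher in NALM-6 (1.17) and not with palbociclib in BV-173 (−0.42). *DBNDD1* (1.35), *ADORA2A*, an adenosine receptor gene (1.28), *SNAI3* (1.27) and *CD248* (1.30) were past the fold in RS4;11 as well. *ADM*, for the peptide adrenomedullin (162 to 383, 1.24), and *RUNX3*, a transcription factor gene (292 to 669, 1.19), were at or below 0 elsewhere: *ADM* at −1.22 in NALM-6 and −0.41 in RS4;11, and *RUNX3*, which did not enter in NALM-6, at −1.14 in RS4;11 and 0.00 with palbociclib. The 2 controls of BV-173 differed for some of these genes, each pair on its own scale. With scrambled shRNA and with DMSO, *BHLHE40* was at 582 and 77.1, *NR4A1* at 264 and 88.9, and *RUNX3* at 292 and 31.5. *CD69* went the other way (252 and 332).

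**Figure D4:**
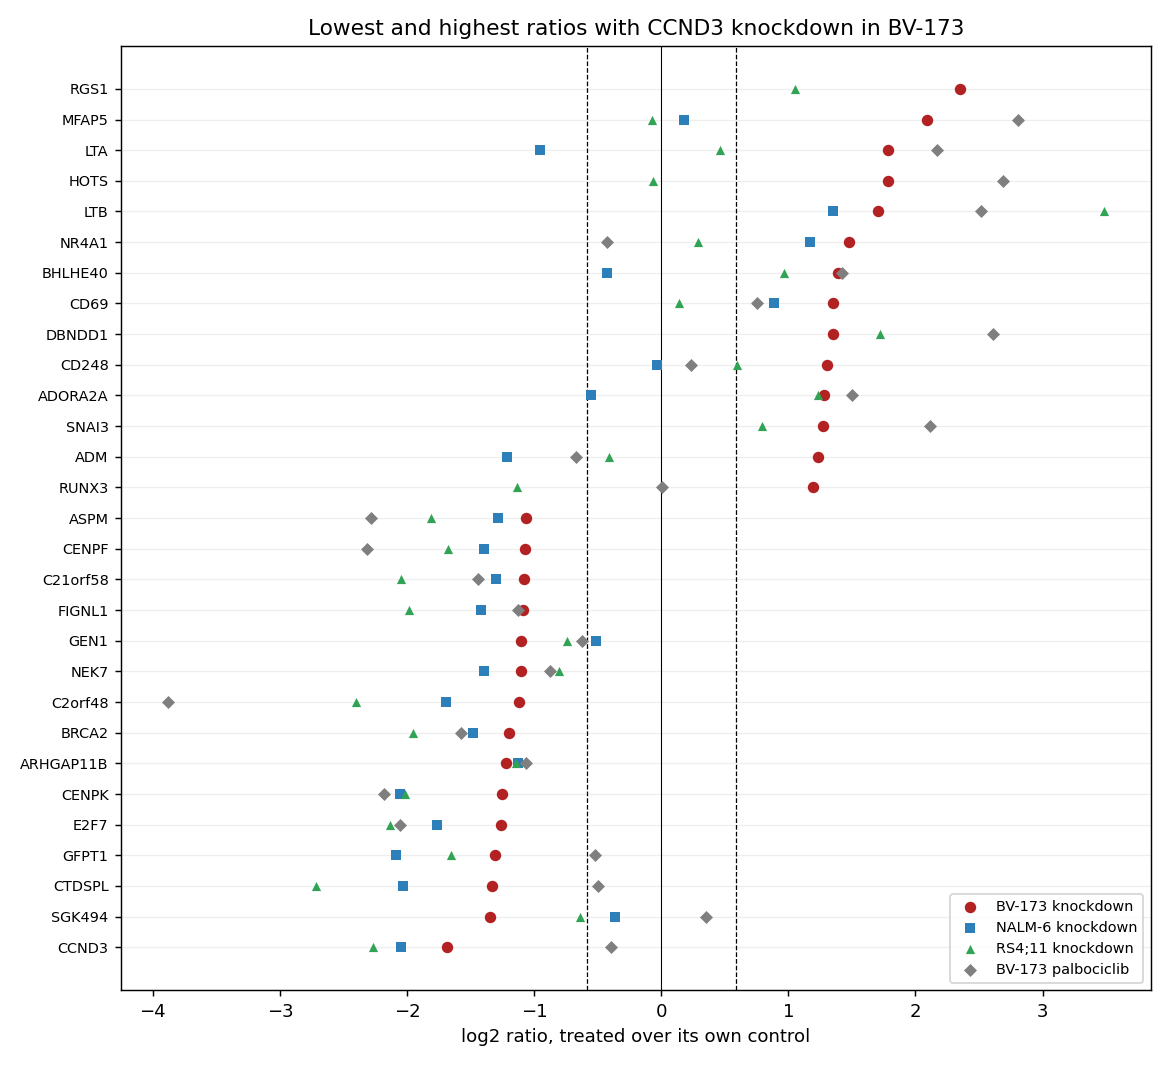
Log2 ratio of treated over control cells (horizontal axis) for 14 of the 15 genes with the highest ratios and the 15 genes with the lowest ratios of the BV-173 knockdown, with 1 marker for each of 4 comparisons and dashed lines at 1.5-fold. A marker is missing where the gene did not enter. The 15 genes with the lowest ratios lie below 0 in all 3 knockdowns, while *ADM* and *RUNX3* lie above the fold in the BV-173 knockdown and at or below 0 in the others.

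Genes that hold cells out of the cycle differed among themselves. None of 6 entered CDK inhibitor genes was past the fold in either direction, and their median log2 ratio was −0.22. The p21 gene *CDKN1A* was at 1531 with scrambled shRNA and 1623 with *CCND3* shRNA (0.08), the p27 gene *CDKN1B* at −0.03, and the INK4 genes *CDKN2C* and *CDKN2D* at −0.58 and −0.46. *CDKN2C* (−0.71) and *CDKN2D* (−0.69) were lower past the fold with the length trend taken out. Of 19 genes of growth arrest and FOXO control, 3 were higher (15.8%, against 3.96% of all genes) and 0 lower, with a median of 0.29 (0.18 with the length trend taken out). These were *BTG1*, an antiproliferative gene (2358 to 3763, 0.67), *RBM38*, which stabilises p21 mRNA (3850.4 to 6529.6, 0.76), and *SESN3* at low levels (26.2 to 51.2, 0.94). With the length trend taken out 5 were higher, where 2.98% of all genes were. The added genes were *KLF6* (0.55, then 0.67) and *MXD4* (0.56, then 0.60). *FOXO1* (1674 to 1569, −0.09), *FOXO3* (−0.14) and *TXNIP* (0.18) were near 0, and *CCNG2* was at −0.51, against 0.69 in RS4;11. Of 21 p53 targets 1 was higher (*PLK3*, 0.60) and 1 lower (*POLH*, for a repair polymerase, −0.69). Each is 4.76% of the list, near the 3.96% and 5.25% of all genes. The list median was 0.12, and *PLK3* and *POLH* were short of the fold with the length trend taken out (0.54 and −0.42). *TIGAR* (0.49 as listed) was then the only member past the fold, at 0.75.

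In the BCL2 family the survival gene *BCL2* was lower (1050.2 with scrambled shRNA and 662 with *CCND3* shRNA, log2 ratio −0.66, −0.65 with the length trend taken out). It was also lower in NALM-6 (−0.96) and RS4;11 (−0.77), and not with palbociclib in BV-173 (−0.10). *MCL1* (3184 to 3032, −0.07) and *BCL2L1* (0.06), the other main survival genes, were near 0. Of 10 death members 0 were higher and 1 was lower (*BIK*, 16.8 to 9.94, −0.70), and their median was 0.25, or 0.13 with the length trend taken out. *BBC3* (0.34), *BAK1* (0.33) and *BAX* (0.28) were above 0 and short of the fold, and *BCL2L11* was at −0.10.

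Genes of the B lineage were past the fold in both directions. Of 15 B-lineage transcription factor genes, 3 were lower (20.0%, against 5.25% of all genes) and 2 higher (13.3%, against 3.96%). With the length trend taken out 2 were lower and 1 higher, and with length and GC trends taken out 1 and 1. The median log2 ratio was −0.32 (−0.20 with the length trend taken out). *IKZF1*, the Ikaros gene, was lower (1755 with scrambled shRNA and 1022 with *CCND3* shRNA, −0.78), as were *CBFB*, for the partner of RUNX factors (3178 to 2003, −0.67), and *ERG* (2265 to 1495, −0.60, −0.50 with the length trend taken out and then short of the fold). *IKZF1* was at −0.24 in NALM-6 and 0.05 in RS4;11. *SPI1* (1869 to 3137, 0.75) and *IRF8* (253 to 466, 0.88), which act together in B and myeloid cells, were higher, although *SPI1* was short of the fold with the length trend taken out (0.56). The core genes *PAX5* (10369 to 8320.0, −0.32), *EBF1* (−0.21) and *TCF3* (−0.05) stayed short of the fold. Of 12 genes of the pre-B-cell receptor and V(D)J recombination, the only ones past it were *RAG2* (753 to 375, −1.0) and *RAG1* (2907 to 1665, −0.80), neighbours on the genome that encode the recombinase. Both were also lower with palbociclib in BV-173 (−1.38 and −1.93), and in NALM-6 they were at 0.31 and −0.03. The surrogate light chain genes *VPREB1* (0.08) and *IGLL1* (0.37) and the receptor genes *CD79A* (0.08) and *CD79B* (0.45) were not past it.

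On the cell surface, *MME*, the CD10 gene of early B cells, was lower (6296 with scrambled shRNA and 3723 with *CCND3* shRNA, −0.76), and of 14 surface antigen genes 2 were higher: *CD69* and *CD44*, an adhesion receptor gene (1944 to 3192, 0.72). The list had 14.3% higher and 7.14% lower, against 3.96% and 5.25% of all genes. *CD22* went from 7309.8 to 10520.4 (0.53) and *MS4A1*, the CD20 gene, from 1604 to 1676 (0.06). For *MS4A1* the log2 ratio was 3.98 in RS4;11 and 2.88 with palbociclib in BV-173, where it went from 205 with DMSO to 1517.

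Genes on the path of the BCR-ABL driver were mostly within the fold. Of 23 genes of ABL and STAT5 signalling 2 were higher (8.70%, against 3.96% of all genes) and 1 lower (4.35%, against 5.25%), with a median log2 ratio of −0.11. *ABL1* was at 3808 with scrambled shRNA and 3501 with *CCND3* shRNA (−0.12) and *BCR* at −0.04, and *STAT5A* at 0.31. *STAT5B* went from 1899 to 1896. *CISH*, a feedback gene of STAT5, was higher (652 to 1123, 0.78), and so was *BCL6*, a repressor gene that STAT5 holds down (798 to 1322, 0.73). *BCL6* was at −1.95 in NALM-6 and 2.21 with palbociclib in BV-173. *SOS1*, an activator of RAS, was lower (1049 to 663, −0.66) and short of the fold with the length trend taken out (−0.40). *SOCS2*, a highly expressed STAT5 target (12143 to 11239.7, −0.11), *PIM1* (−0.51) and *DUSP6* (−0.31) stayed within it, and *DUSP6* was at −1.65 in NALM-6 and −0.88 in RS4;11.

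Lysosome genes lay above 0. Of 29 genes for lysosomal enzymes, membrane proteins and the proton pump, 7 were higher (24.1%, against 3.96% of all genes) and 0 lower, 26 were above 0, and the median log2 ratio was 0.39. With the length trend taken out the median was 0.30 and 4 were past the fold. The higher genes included *GRN*, for progranulin (4223 to 6538, 0.63, 0.55 with the length trend taken out), *ASAH1*, acid ceramidase (546 to 855, 0.64), *MAN2B1* (0.63), *GAA*, which digests glycogen (0.62), *PLA2G15* (0.85) and the pump subunit gene *ATP6V1F* (0.80, 0.47 with the length trend taken out). The master regulator gene *TFEB* was at 479 with scrambled shRNA and 670.1 with *CCND3* shRNA (0.48). The list had medians of 0.35 in NALM-6, 0.53 in RS4;11 and 0.47 with palbociclib in BV-173, with 8, 13 and 13 members higher, where 8.36%, 10.2% and 14.4% of all genes were higher.

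Antigen presentation genes of both classes lay mostly above 0. None of 13 MHC class I genes was past the fold, but 10 were above 0, with a median log2 ratio of 0.38 (0.20 with the length trend taken out): *HLA-B* went from 28319 to 39940.4 (0.50) and *B2M* from 26392 to 34339 (0.38). Of 11 MHC class II genes, the invariant chain gene *CD74* was higher (41795 to 64233, 0.62) and *CIITA*, their master activator, lower (591 to 378, −0.64), and both were short of the fold with the length trend taken out (0.44 and −0.55). The class II median was 0.21 in the BV-173 knockdown, or 0.12 with the length trend taken out, and 10 of 11 were above 0. It was −0.68 in NALM-6 and 1.09 in RS4;11 after knockdown. With palbociclib in BV-173 it was 1.54, and 10 of 11 were higher past the fold. Of 24 interferon-stimulated genes 3 were higher (*ISG20*, 0.90, *IFI30*, 0.73, and *ISG15*, 0.63) and 1 was lower (*IFIT2*, −0.61), and the median was −0.05. These are 12.5% higher and 4.17% lower, against 3.96% and 5.25% of all genes. *IFI30* (0.49) and *ISG15* (0.30) were short of the fold with the length trend taken out.

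For lists of short genes the values as listed and those with the length trend taken out differed most. The 79 cytosolic ribosomal protein genes, with a median length of 737 bases, had a median log2 ratio of 0.53. Of them 78 lay above 0 and 18 were higher past the fold (22.8%, against 3.96% of all genes). With the length trend taken out the median was 0.22 and 3 of 79 were past it, near the 2.98% of all genes then higher. *RPS29*, for example, went from 6205 to 10071 (0.70, then 0.37) and *RPL22* from 16849 to 21109 (0.33, then 0.20). The 3 members longer than the median of all genes had a median of 0.57, then 0.63. The 76 shorter ones had a median of 0.53, then 0.22. The medians of this list elsewhere were 0.32 in NALM-6, 0.40 in RS4;11 and 0.55 with palbociclib in BV-173. For 53 genes of respiratory complex I and ATP synthase the median went from 0.28 to 0.03, for 77 mitochondrial ribosomal protein genes from 0.21 to 0.02 and for 36 proteasome genes from 0.09 to −0.09. The 33 histone genes that entered, with a median length of 534 bases, went the other way, from −0.07 with 1 lower to −0.39 with 10 lower. Of all genes 5.25% were lower as listed and 4.98% with the length trend taken out. Most replication-dependent histone messages lack a poly(A) tail, the libraries were made by oligo-dT selection, and 41 of 81 histone genes fell under the level filter. The Mediator kinase module holds long genes: its median was −0.32 as listed and −0.08 with the length trend taken out. Of its members, *CDK8*, a kinase gene, stayed past the fold (751 with scrambled shRNA and 466 with *CCND3* shRNA, −0.69, then −0.67), and its relative *CDK19* did not (270.3 to 174, −0.64, then −0.46). *MED12* (−0.37, then −0.15) and *CCNC*, the cyclin of the module (0.09), were short of it.

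**Figure D5:**
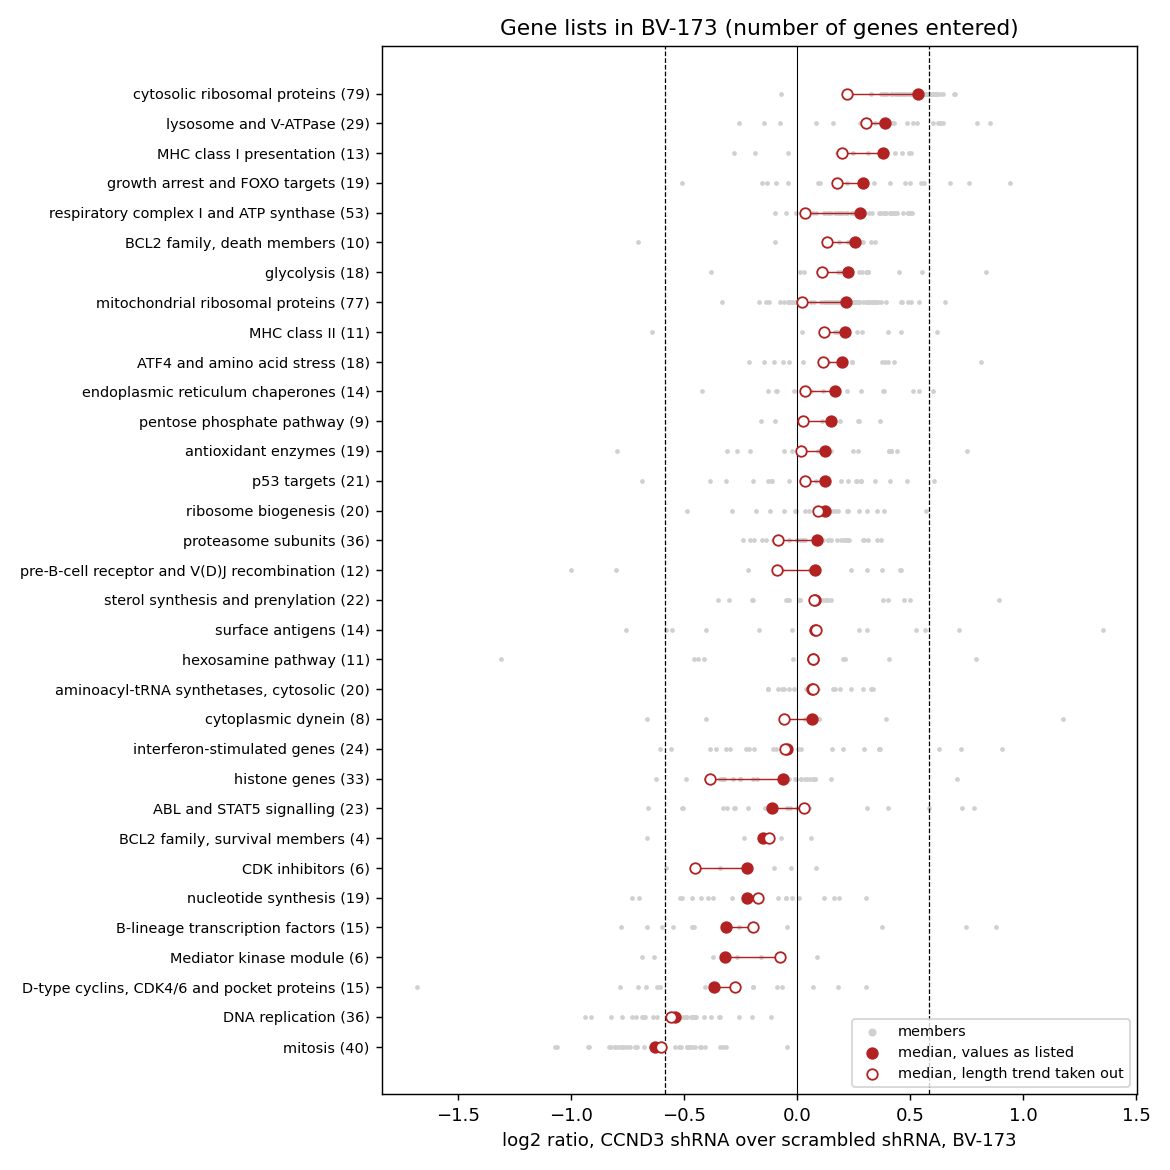
Log2 ratio in the BV-173 knockdown (horizontal axis) for 33 gene lists, with members as grey points, the list median as listed as a filled circle and the median with the length trend taken out as an open circle, and dashed lines at 1.5-fold. The medians of mitosis (−0.63 and −0.60) and DNA replication (−0.54 and −0.56) stay in place, while those of the cytosolic ribosomal proteins (0.53 and 0.22) and of complex I and ATP synthase (0.28 and 0.03) move towards 0.

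Metabolic lists were within the fold for most members. Of 18 entered genes of ATF4 and the amino acid stress response, 1 was higher (5.56%, against 3.96% of all genes) and 0 lower. The higher gene was *DDIT4*, an inhibitor of mTORC1 (4208 to 7405, 0.82), and the median log2 ratio was 0.20. *ATF4* itself was at 16483 with scrambled shRNA and 18120.5 with *CCND3* shRNA (0.14), and the serine synthesis genes *PHGDH* (−0.06) and *PSAT1* (−0.15) and the asparagine synthetase gene *ASNS* (−0.21) were near or below 0. Elsewhere the list was lower, with medians of −0.56 in NALM-6, −0.66 in RS4;11 and −1.82 with palbociclib in BV-173. There 9 of 19, 12 of 19 and 16 of 18 members were lower past the fold, against 10.3%, 11.1% and 14.2% of all genes. For 17 of 18 members the BV-173 ratio lay above that of both other lines, which held for 43.3% of all genes. The amino acid transporter gene *SLC7A5* went from 21560.5 to 28459 (0.40) in BV-173 and was at −1.02 and −0.74 in the other lines. Of 18 glycolysis genes 17 lay above 0, with a median of 0.22 and of 0.11 with the length trend taken out. Past the fold was 1 (5.56%, against 3.96% of all genes): *SLC2A3*, a glucose transporter gene (341 to 609, 0.84). None of 9 pentose phosphate genes, 20 cytosolic aminoacyl-tRNA synthetase genes and 20 ribosome biogenesis genes was past it. Of 22 sterol and prenylation genes 1 was higher (*TM7SF2*, 0.89), which is 4.55%, near the 3.96% of all genes. *ICMT*, for the methyltransferase of prenylated proteins, was at −0.35, against −1.21 in NALM-6 and −1.36 in RS4;11.

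In 3 small lists single members stood far from the rest. Each had 1 member higher and 1 lower: 9.09% each of hexosamine, 12.5% each of dynein and 5.26% each of antioxidant genes. Of all genes 3.96% were higher and 5.25% lower, and 1 member each way is no result about a list this small. Of 11 hexosamine genes, *GFPT1* was lower (−1.31) and *RENBP* higher (250.1 to 434, 0.79), and the other 9 lay between −0.45 (*PGM3*) and 0.40 (*NANS*). Of 8 cytoplasmic dynein genes, the light chain gene *DYNLRB1* was higher (800.3 with scrambled shRNA and 1808 with *CCND3* shRNA, 1.17) and *DYNC1LI2* lower (−0.66, −0.57 with the length trend taken out and then short of the fold). Of 19 antioxidant genes, *PRDX3*, for the mitochondrial peroxiredoxin, was lower (5738 with scrambled shRNA and 3303 with *CCND3* shRNA, −0.80, −0.97 with the length trend taken out) and *GPX1* higher (9308 to 15677, 0.75, then 0.52). *PRDX3* was at −1.76 in NALM-6 and −1.46 in RS4;11, and at 0.02 with palbociclib. Of 14 endoplasmic reticulum chaperone genes 1 (7.14%) was higher (*HERPUD1*, 0.60) and *HSPA5* was at 0.54. *HERPUD1* was short of the fold (0.47) and *HSPA5* past it (0.61) with the length trend taken out.

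The genes past the fold in BV-173 overlapped with those of the other knockdowns. The 3 knockdown comparisons have separate controls and separate tables, so ratios were set side by side and levels were not. Of the higher genes in BV-173, 107 of 370 (28.9%) were also higher in NALM-6 and 189 of 416 (45.4%) in RS4;11. The shared genes were 14.3% of the 749 higher genes of NALM-6 and 20.3% of the 933 of RS4;11. Of all genes that entered in both tables, 7.0% were higher in NALM-6 and 8.57% in RS4;11, and 10.1% and 10.9% were lower. Of the lower genes in BV-173, 267 of 561 (47.6%) were also lower in NALM-6 (24.7% of its 1082) and 293 of 567 (51.7%) in RS4;11 (24.8% of its 1182). Across genes, Pearson's r between the BV-173 ratios and those of NALM-6 was 0.38 (10696 genes) and with RS4;11 0.51 (10887 genes). With the length trends taken out it was 0.43 and 0.54. These describe pairs of tables whose genes share transcript features and 1 shRNA.

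In all 3 lines, 72 genes were higher and 237 were lower, which is 20.1% of 358 higher and 43.0% of 551 lower genes of BV-173. Of all genes, 2.84% were higher and 6.40% lower in both other lines. The 237 lower genes had a median log2 ratio of −0.74 in BV-173, −1.21 in NALM-6 and −1.55 in RS4;11, and 210 of them were nearest to 0 in BV-173. With palbociclib in BV-173, 214 of the 237 were lower past the fold and 23 were not. Among those 23, taken after their values were seen and with a mean level of at least 100 in all 4 tables, were *CCND3*, *GFPT1*, *PRDX3*, *CDK8*, *BCL2* and *CDK19*, already given, *TWF1*, for an actin-binding protein (744 to 472, −0.66, against 0.43 with palbociclib), *C1GALT1*, for an O-glycosylation enzyme (−0.72, −0.54 with the length trend taken out, −0.43 with palbociclib), *PDCD4*, for a translation inhibitor (−0.72, −0.24), and the repair gene *TONSL* (8718 to 5403, −0.69, −0.20). Of the 72 higher genes 69 entered with palbociclib, where 53 were higher, 15 were not past the fold and 1 was lower. *DYNLRB1* (0.20 with palbociclib) and *PTP4A3*, a phosphatase gene (5402 to 9911, 0.88, 0.37), were among those 15.

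Other genes were past the fold in BV-173 and in neither other line: 170 of 358 higher genes (47.5%) and 234 of 551 lower genes (42.5%). Of all 10547 genes that entered in the 3 lines, 88.0% were not higher and 85.5% not lower in either of the other 2 lines. With the length trend taken out these were 97 of 257 (37.7%) and 196 of 506 (38.7%). The genes with the widest gap above both other lines were *CDKN3*, a phosphatase gene of the cell cycle (670.1 to 624, −0.10 in BV-173, −1.48 and −1.64 in NALM-6 and RS4;11), and *ZNF367* (−0.46, −1.78, −2.27). *CDC20*, *CDT1* and *CENPH* (−0.39, −1.50, −1.80) were of the same kind, less reduced in BV-173. Higher in BV-173 and not in the others were *PFKFB4*, which tunes glycolysis (167 to 377, 1.17, −1.75, −0.11), *FOSL2* (1.14, −0.36, −0.13) and the growth factor gene *PDGFA* (2297 to 4528, 0.98, −0.18, −0.40). *PFKFB4* was also higher with palbociclib in BV-173 (1.10), and *FOSL2* (0.11) and *PDGFA* (−0.48) were not. *NKD2*, a Wnt inhibitor gene, was at 0.26 against −0.85 and −1.06.

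Lower in BV-173 than in both other lines were *ARID5B*, a B-ALL susceptibility gene (2959 to 1685, −0.81 in BV-173, 0.53 in NALM-6, 0.44 in RS4;11), *NFAT5*, for an osmotic stress factor (684 to 434, −0.65, 0.67, 0.56), *PARP15* (−0.65, 0.64, 0.47) and *ZNF789* (−0.80, 0.40, 0.34). *NFAT5* and *PARP15* were short of the fold with the length trend taken out (−0.39 and −0.55). Others were higher in both other lines and near 0 in BV-173, among them *KLHL24* (−0.24, 1.47, 1.14), *SAMHD1*, which breaks down deoxynucleotides (−0.04, 1.29, 1.11), the histone gene *HIST1H2BK* (−0.07, 1.53, 1.47), *PCDHGC3* (0.12, 1.30, 1.62) and *HBP1*, a cell-cycle repressor gene (−0.40, 0.74, 0.83). *ZNF783* was at −0.32, 0.91 and 1.03. No test of a difference between lines was possible, since no table gives the spread between samples.

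Palbociclib in the same line addresses which changes also come with inhibition of the kinases of cyclin D3. With palbociclib 1627 genes were higher and 1608 lower of 11305. Of the higher genes of the knockdown, 271 of 427 (63.5%) were also higher with palbociclib (18.1% of its 1501), and of the lower genes 319 of 576 (55.4%) were also lower (20.0% of its 1592). Of all genes that entered in both tables, 13.6% were higher and 14.4% lower with palbociclib. Pearson's r across 11076 genes was 0.53, and 0.50 with both length trends taken out. The knockdown was collected on day 4 and palbociclib cells after 3 days, with different controls, so the sizes are set side by side and are not matched doses or times. *CCND3* was at −0.40 with palbociclib.

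Genes far lower with palbociclib than with knockdown included 4 members of the ATF4 list: *DDIT3* (537 to 703, 0.39 with knockdown, −2.37 with palbociclib), *ATF5* (0.11, −2.54), *TRIB3* (0.03, −2.44) and *PHGDH* (−0.06, −2.51). *INHBE* (0.19, −2.86), *SPNS3* (−0.10, −3.19), *FAM129A* (−0.35, −3.21), *JDP2* (0.11, −2.44), *SLA* (−0.05, −2.52) and *CTNNAL1* (−0.43, −2.82) complete these 10. Genes far higher with palbociclib were led by *MS4A1*, and included the class II genes *HLA-DQA1* (0.29, 2.55) and *HLA-DOA* (0.12, 2.18), the antiproliferative gene *BTG2* (0.22, 2.17), the integrin gene *ITGB7* (0.32, 2.26), *SAMHD1* (2.24), *S100A4* (0.27, 2.23) and *PCDH9* (392 to 259, −0.60, 1.96). *NPEPL1* (−0.29, 1.85) and *GAL3ST4* (0.08, 1.93) were the remaining 2. For *MS4A1* the controls differed, with a level of 1604 with scrambled shRNA and 205 with DMSO. The treated cells were at 1676 (*CCND3* shRNA) and 1517 (palbociclib), each pair on its own scale. Its gap in ratio therefore does not show a higher level in palbociclib cells than in knockdown cells. Controls also differed for others of these genes. *ITGB7* was at 146 with scrambled shRNA and 46.6 with DMSO, and at 182 and 227 in the treated cells. *GAL3ST4* was at 124 and 47.5, and at 131 and 185 in the treated cells. *HLA-DQA1* (105 and 195) and *HLA-DOA* (204 and 405) were lower with scrambled shRNA than with DMSO. Of these 20 genes, *PCDH9* was the only one past the fold with knockdown in BV-173, and it was lower there and higher with palbociclib. It was short of the fold with knockdown once the length trend was taken out (−0.48).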

How the data were processed

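Of the 34 RNA-seq samples, the 6 BV-173 samples with scrambled or *CCND3* shRNA were compared, with the NALM-6 and RS4;11 knockdowns and BV-173 palbociclib samples for reference. Transduced, fluorescent cells were sorted, RNA was prepared with oligo-dT selection, and reads were cleaned with SOAPnuke, mapped with Bowtie2 to the hg38 reference, quantified with RSEM and compared with DESeq2, per the series' design text and the submitters' processing notes. Versions are not given in the sources used here. The deposited tables hold, for each gene, its length and 1 expression value (signal) per group, with the replicates combined by the authors. The scaling within each pair of groups is read from the tables' origin and values, since no normalization is described in the sources used here. The authors' own fold change and p-value columns were not used. Depth per sample, and the precision it gives, is therefore unknown.

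A test between groups had been set down for the case of values per sample. The tables hold none, so no test, SD or interval was computed. Values are log2 ratios of (level + 1), for genes with a mean level of at least 10, called past a fold of 1.5. The call by size was run on simulated tables with known folds first. Genes named are *CCND3*, members of 33 gene lists, the 15 highest and the 15 lowest ratios at a mean level of at least 100, and the 10 widest gaps in each direction from the nearer of the other lines and from palbociclib. Any other gene was chosen after its values were seen. Some genes that the rule names are not reported here. The samples, gene lists and comparisons were chosen with earlier results of these data known. Alternatives were the pseudocount, level filter, fold, centring, equal sums and shared genes, and, chosen after seeing the data, removal of trends with gene length (median of 20 bins) and with GC content of GENCODE 44 transcripts. Promoters came from RefSeq. Python 3.11.15, numpy 2.4.6, pandas 2.3.3 and matplotlib 3.10.9 were used.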

Additional observations from a re-analysis of the deposited data

How the results depend on the processing

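With equal sums in both groups, 261 genes were higher and 956 lower, and the log2 ratio of *CCND3* was −1.78. With a fold of 2, 60 genes were higher and 55 lower, so that more genes were higher than lower, and the genes shared with NALM-6 numbered 13 higher and 20 lower, with RS4;11 22 and 21, and with palbociclib 32 and 20, all fewer because the fold is larger. With a mean level of at least 100, 68 higher genes were shared with NALM-6 and 109 with RS4;11, with fewer genes entered. With the length trend taken out *CCND3* was at −1.81, and with length and GC trends taken out at −1.91, where 249 genes were higher. Under these 2 alternatives the medians of gene lists moved most often. For 5 of the lists taken as main results the median moved, to these values: cytosolic ribosomal proteins 0.22 and 0.20, MHC class I 0.20 and 0.12, complex I and ATP synthase 0.033 and −0.011, the Mediator kinase module −0.077 and −0.064, and, with both trends out only, lysosome 0.24. Some medians turned sign, chiefly with a trend taken out. With length out, ABL and STAT5 signalling went from −0.11 to 0.028, the pre-B-cell receptor from 0.078 to −0.089, dynein from 0.065 to −0.061 and the proteasome from 0.089 to −0.086. With length and GC out, complex I and ATP synthase, the pentose phosphate pathway (−0.042), antioxidant enzymes (−0.024) and mitochondrial ribosomal proteins (−0.012) turned below 0. With a mean level of at least 100 the interferon-stimulated genes turned from −0.047 to 0.0095. The cause was not tested. Of 94 alternatives to the main counts and medians, 25 moved the value by at least 0.1 on the log2 scale or by over 1.5 times and 69 did not, and of the 166 others 38 moved, 32 of them with a trend taken out, among them the medians of histones (−0.39) and CDK inhibitors (−0.45). No paired analysis was possible because each table holds 1 combined value per group, and for the same reason no replicate could be left out. Depth per sample is unknown, and 1 shRNA was sequenced.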
